A study of Caenorhabditis elegans with 9 samples.

Results

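The transcripts described here are those of ion channel genes in VA motor neurons of Caenorhabditis elegans. They encode potassium channels, voltage-gated calcium channels, the sodium leak channel complex and a member of the CLC chloride channel family, with some accessory subunits. Members were chosen by gene symbol among the genes that the authors listed as higher in sorted VA neurons than in whole worms, which gave 34 genes, and 2 channel genes were added from the authors' list of genes higher in VA neurons of unc-4 mutants, ccb-2 and C32C4.1, now named kvs-2. This makes 36 of the 2550 genes in either list. The gene ccb-2 is in both lists, so 35 of the 36 have values in VA neurons and whole worms. A further 4 two-pore potassium channel genes, twk-7, twk-30, twk-39 and twk-40, were left out by the rule and serve only for comparison.

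Potassium channels let potassium leave the cell, which holds the membrane at rest or ends a depolarisation. Two-pore channels carry a background current, voltage-gated, calcium-activated and EAG-type channels open on depolarisation or calcium entry, and inward rectifiers pass current near rest. Voltage-gated calcium channels are built from a pore-forming alpha1 subunit with beta and alpha2-delta subunits and trigger transmitter release, and NALCN-type channels carry a sodium leak that depolarises neurons. VA neurons are cholinergic A-class motor neurons of the ventral nerve cord that drive backward movement.

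Libraries came from larvae at the second larval stage (L2) and fall into 3 groups of 3. Wild type VA neurons (replicates 1, 2 and 3) were sorted as red, non-green cells from animals with an mCherry reporter under the unc-4 promoter and a GFP reporter under another part of it, a gate that per the labels also takes AVF neurons. VA neurons of unc-4 mutants (replicates 1, 2 and 3) carried the same reporters, and the labels give no allele. The reference is whole N2 worms (replicates 2, 3 and 4) that were frozen and not sorted. The groups therefore differ in handling and, against N2, in strain as well as in their cells. The labels do not say whether replicates are separate cultures, so p-values measure the spread between these libraries, which may be technical.

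Values are TPM, transcript abundances scaled for transcript length and for a fixed total per library, so levels of different genes can be compared, while depth is unknown and no counting interval is given. Every listed gene had been called higher by the authors at a false discovery rate (FDR) under 0.05. Enrichment over whole worms is thus how the 34 genes were found and is described without being counted as evidence, and levels of channel genes that were not listed are not analysed here. All 8 of 8 markers of cholinergic ventral cord neurons, unc-4, unc-3, unc-17, cha-1, cho-1, bnc-1, del-1 and acr-2, were listed in VA neurons, at a summed 3430 to 4902 TPM against 66.6 to 78.7 TPM in whole worms. None of 26 markers of GABA, glutamate, monoamine or ciliated neurons, muscle, pharynx, intestine, hypodermis or germline was listed there. Only genes higher than in whole worms are listed, so a marker that is not listed may still be present, and the count does not measure purity. The GABA neuron gene unc-30, for example, read 11.01, 6.04 and 13.2 TPM in wild type VA replicates 1, 2 and 3. snf-11, a GABA transporter gene reported in AVF, was listed, at 93.001 to 184 TPM in VA against 11.2 to 21.03 TPM in whole worms, so the part of AVF in any level below was not tested. In bulk libraries like these, fewer cells with a transcript and less of it per cell cannot be told apart.

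Together the 35 channel genes held 0.530%, 0.387% and 0.286% of all TPM in the VA libraries (replicates 1 to 3) and 0.0378%, 0.0341% and 0.0269% in the whole-worm libraries (replicates 2 to 4). In the authors' deposited table their folds ran from 3.26 for clh-5 to 56.1 for twk-47, with a median of 16.7 against 6.94 over all 2349 genes of the table. The ratio of mean TPM had a median of 12.5 over these genes and 5.18 over the table. In 34 of the 35 the lowest VA library exceeded the highest whole-worm one, and the same held for 91.9% of all genes in the table. On log2(TPM + 1), limma's test with Benjamini-Hochberg adjustment over 2328 genes passed 35 of 35 at an adjusted p under 0.05, and 95.1% of all genes fitted. Both shares lie near those of the table, which the authors' selection on the same libraries fixes. The median log2 difference was 2.98 over the channel genes and 1.83 over the table.

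**Figure D1:**
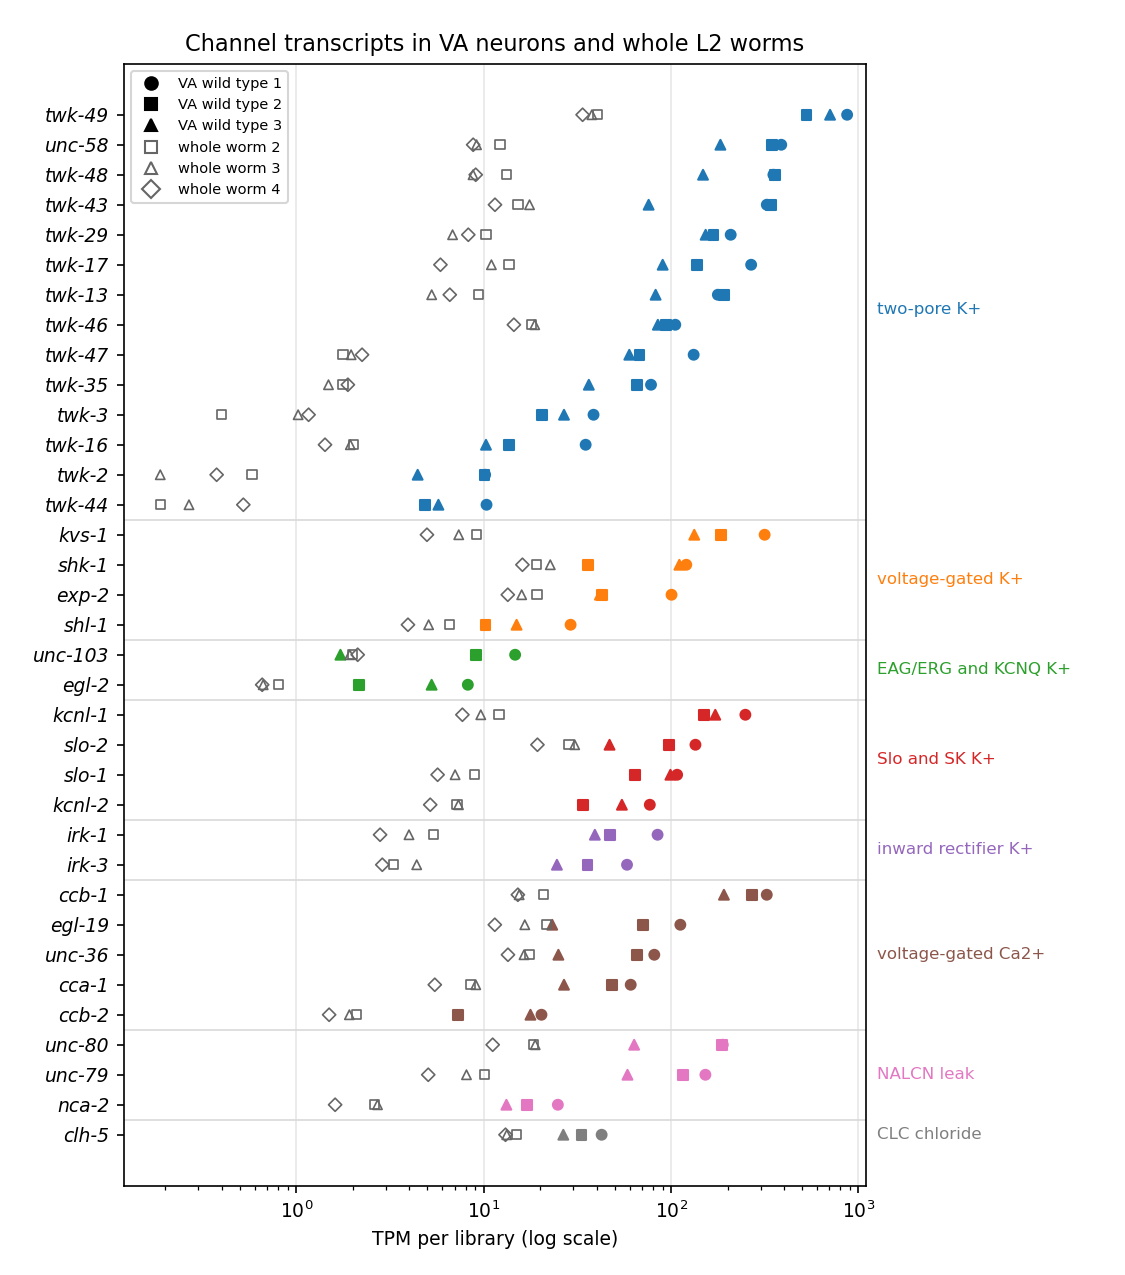
TPM in each library on a log axis for the 35 channel genes with values in VA neurons and whole worms, grouped by family; filled symbols are the 3 wild type VA libraries and open symbols the 3 whole-worm libraries. The open and filled symbols are apart for 34 genes, and overlap for unc-103, whose VA replicate 3 read 1.72 TPM.

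By level, twk-49 stood alone at the top of the list in VA neurons, and below it the order was gradual. Its lowest VA library exceeded the highest library of the next gene, unc-58, whereas the VA library ranges of the other 33 of 34 neighbouring pairs overlapped. These ranges alone do not resolve the order by mean, and the order within each library was not examined pair by pair. A mean of at least 100 TPM was reached by 12 genes, of at least 10 TPM by 31. The genes ccb-1, kcnl-1, kvs-1, twk-29, twk-48, twk-49 and unc-58 were the 7 that ranked among the 10 highest in each VA library. The order of the 35 genes was similar between VA libraries (Spearman's rho 0.968, 0.917 and 0.860 for replicates 1 and 2, 1 and 3, and 2 and 3, a description over genes). Against whole worms rho was 0.692 for the means.

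Among the 35 members with values, a set fixed by the rule, two-pore genes held most of the summed TPM in each VA library. Of 44 annotated twk genes 17 were listed as higher in VA neurons, 13 of them members here. The related genes egl-23, sup-9 and the accessory gene unc-93 were not listed, while unc-58 was. For scale, 11.6% of annotated protein-coding genes were listed. The 14 members summed to 2336 ± 664 TPM in VA neurons (SD, n = 3) and to 122 ± 16.6 TPM (n = 3) in whole worms.

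The most abundant was twk-49 (WBGene00019904, chromosome II, 6492785 to 6499167, build WBcel235 as all coordinates here). It read 869.6, 528 and 705 TPM in VA replicates 1, 2 and 3, whereas whole-worm replicates 2, 3 and 4 held 40.4, 37.8 and 33.7 TPM. The groups were far apart, with a log2 difference of 4.17 ± 0.33 (SE, adjusted p = 1.2e-06 by limma). Exons of twk-49 share 608 bases with those of T28D9.1 on the opposite strand, which had a mean of 424 ± 70.8 TPM in VA (SD, n = 3) and of 153 ± 41.4 TPM in whole worms (n = 3). Without stated strand information part of either value may belong to the other gene. unc-58 (chromosome X, 10104610 to 10133182), a two-pore family gene known for gain-of-function mutants with altered movement, read 387, 347 and 183 TPM in VA against 8.78 to 12.2 TPM in whole worms, 30.4-fold by means. twk-48 read 351, 357 and 148 TPM against 8.77 to 13.3 TPM. In both, VA replicate 3 was the low library and still lay far above whole worms. Shared exon bases were fewer elsewhere, such as 229 of C32C4.1 with C32C4.3 and 216 of exp-2 with the noncoding F12F3.5. Others were 111 of twk-48 with dhhc-4 and 109 of unc-80 with amx-3. None of these neighbours was listed as higher in VA neurons. Listed neighbours were R05G9.5, with 45 bases shared with twk-49 on the same strand, and W07E11.1, with 41 shared with unc-58 on the opposite strand.

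A second set of two-pore genes was lower, with every VA library still above every whole-worm one. twk-43 read 324, 339.9 and 75.9 TPM in VA replicates 1, 2 and 3 against 11.5 to 17.6 TPM in whole worms. twk-29 read 208, 168 and 153 TPM against 6.82 to 10.3 TPM. twk-17 read 267, 137 and 90.2 TPM against 5.88 to 13.7 TPM. Of these, twk-29 varied little between VA libraries, while twk-43 fell in VA replicate 3 far below its level in the other two. twk-13 read 178, 192 and 82.7 TPM against 5.28 to 9.36 TPM. twk-46 read 105, 93.8 and 85.0 TPM against 14.5 to 18.7 TPM. It had the smallest spread of all 35 genes in VA neurons, with a coefficient of variation of 10.7%, and the smallest ratio of this family, 5.55.

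The largest ratios of the 35 genes belonged to two-pore genes that were low in whole worms. twk-47 (chromosome I, 5834597 to 5837392) read 132, 67.8 and 59.8 TPM in VA and 1.77 to 2.24 TPM in whole worms, a ratio of 43.4. twk-35 read 78.1, 65.7 and 36.4 TPM against 1.48 to 1.88 TPM, a ratio of 35.0. twk-3 read 38.6, 20.5 and 26.8 TPM against 0.397 to 1.16 TPM, a ratio of 33.2. The ratio of twk-47 was 32.04 without VA replicate 1, and that of twk-3 was 26.2 without whole-worm replicate 2. twk-2 read 10.2, 10.1 and 4.44 TPM against 0.188 to 0.580 TPM. twk-44 read 10.4, 4.85 and 5.73 TPM against 0.189 to 0.521 TPM. twk-16 read 35.0, 13.6 and 10.3 TPM against 1.42 to 2.02 TPM, and its ratio of 10.9 was 6.66 without VA replicate 1. These 3 were the least abundant two-pore members, each with every VA library above whole worms. The 4 genes left out by the rule had ratios of 45.2 to 196, above every member, with twk-39 at 84.8 ± 15.8 TPM (SD, n = 3), twk-40 at 276 ± 107, twk-7 at 126 ± 71.8 and twk-30 at 243 ± 88.1 TPM in VA neurons, so in level all 4 lay under twk-49.

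**Figure D2:**
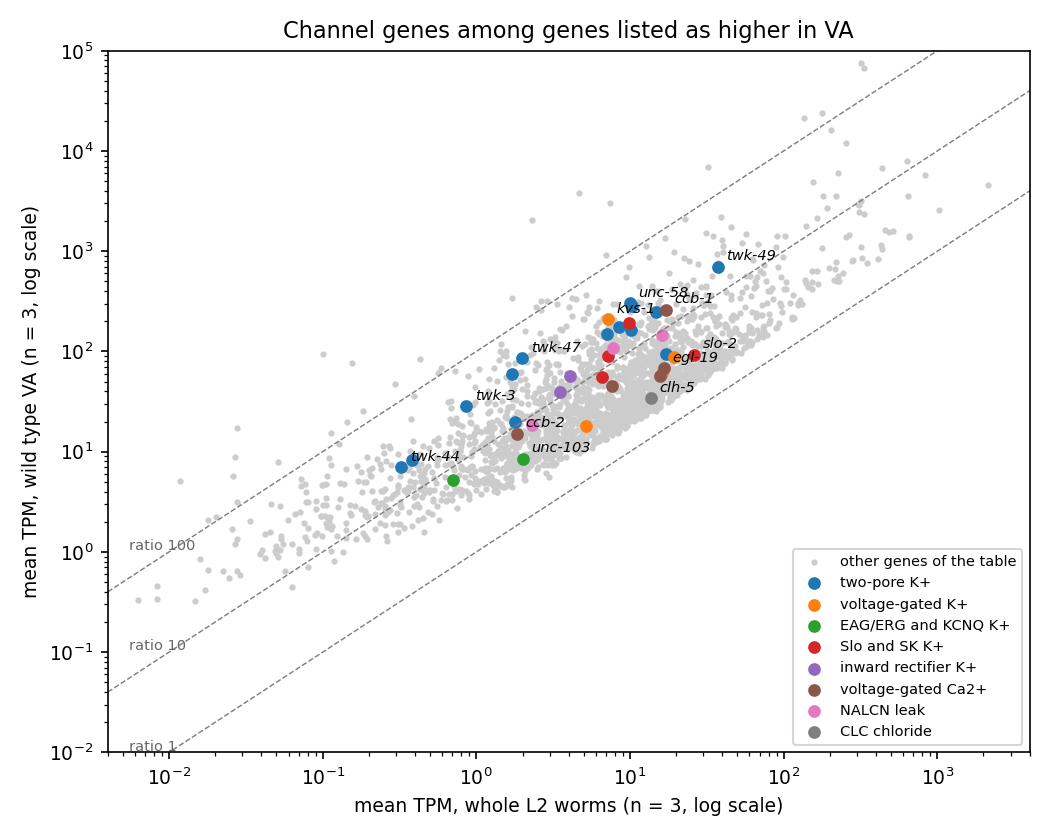
Mean TPM in wild type VA neurons (n = 3) against mean TPM in whole worms (n = 3), both on log axes, for genes listed as higher in VA neurons (grey, without 20 genes listed at 0 in whole worms) and the 35 channel genes (coloured by family); dashed lines mark ratios of 1, 10 and 100. Two-pore genes reach a ratio of 43.4, and clh-5 lies nearest to the line of equal level at 2.48.

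Voltage-gated potassium channels were led by kvs-1. This gene (chromosome X, 7690498 to 7707131) read 316, 184 and 133 TPM in VA replicates 1, 2 and 3 against 4.98 to 9.17 TPM in whole worms, with a log2 difference of 4.64 ± 0.38 (SE, adjusted p = 1.5e-06 by limma). The KCNE-like accessory subunit genes mps-1, mps-2, mps-3 and mps-4 were not listed. The Shaker-type gene shk-1 read 120.5, 35.9 and 111 TPM against 16.1 to 22.7 TPM. The Shal-type gene shl-1, which carries a transient current, read 29.1, 10.2 and 14.98 TPM against 3.94 to 6.57 TPM. Both were lowest in VA replicate 2. exp-2, a voltage-gated channel gene known from pharyngeal muscle, read 101, 42.6 and 41.7 TPM against 13.4 to 19.2 TPM. The ratios of shk-1, exp-2 and shl-1 were 4.61, 3.8001 and 3.48, under the table's median of 5.18. Of the 9 annotated genes of this family under the rule these 4 were listed, and egl-36, kvs-2, kvs-3, kvs-4 and kvs-5 were not. The Shaw-type genes shw-1 and shw-3, outside the rule and named after their values were seen, averaged 21.5 ± 8.92 and 13.6 ± 3.90 TPM (SD, n = 3) in VA neurons against 9.28 ± 0.839 and 3.46 ± 0.519 TPM in whole worms (n = 3).

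EAG- and ERG-type genes were low, and 1 of them was not separated. The EAG-type gene egl-2 read 8.23, 2.15 and 5.27 TPM in VA replicates 1, 2 and 3 against 0.658 to 0.802 TPM in whole worms. The ERG-type gene unc-103 (chromosome III, 4115385 to 4147278) read 14.7, 9.104 and 1.72 TPM against 1.93 to 2.13 TPM. Its VA replicate 3 was thus below all whole-worm libraries, while replicates 1 and 2 were well above. The log2 difference was 1.33 ± 0.56 (SE, adjusted p = 0.039 by limma), the weakest call of the 35. It was lost when VA replicate 1 or 2 or any whole-worm library was left out (adjusted p = 0.20, 0.10, 0.080, 0.077 and 0.067 by limma), and the ratio of means fell from 4.22 to 2.68 without VA replicate 1. The KCNQ-type genes kqt-1, kqt-2 and kqt-3 were not listed.

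Calcium-activated channels and their relatives gave 4 listed genes of 6. The small-conductance (SK) family genes kcnl-1 and kcnl-2 were listed and kcnl-3 and kcnl-4 were not. kcnl-1 (chromosome V, 19565382 to 19606124) read 249, 149.6 and 172 TPM in VA replicates 1, 2 and 3 against 7.70 to 12.1 TPM in whole worms. kcnl-2 read 76.98, 33.9 and 54.6 TPM against 5.18 to 7.33 TPM. Both were lowest in VA replicate 2 and highest in replicate 1. The large-conductance calcium-activated (BK) gene slo-1 read 108, 64.3 and 99.2 TPM against 5.68 to 8.92 TPM. Its relative slo-2 read 135, 97.7 and 46.9 TPM against 19.4 to 30.6 TPM. slo-1 was 12.5-fold and slo-2 3.56-fold above whole worms by means. Of genes that act with slo-1, the auxiliary subunit gene bkip-1 at 44.1 ± 13.3 TPM and the alpha-catulin gene ctn-1 at 39.6 ± 16.6 TPM (SD, n = 3) were listed, and erg-28 and islo-1 were not.

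Inward rectifier and chloride channel genes were represented by few members. irk-1 read 84.7, 47.3 and 39.2 TPM in VA replicates 1, 2 and 3 against 2.80 to 5.40 TPM in whole worms. irk-3 read 58.2, 35.8 and 24.6 TPM against 2.88 to 4.39 TPM. Both were highest in replicate 1 and lowest in replicate 3, and irk-2 was not listed. Of 6 CLC-type genes only clh-5 was listed, at 42.6, 33.3 and 26.6 TPM against 13.1 to 15.02 TPM. Its ratio of 2.48 was the lowest of the 35 (log2 difference 1.23 ± 0.32, SE, adjusted p = 0.0038 by limma). None of the 3 annotated cng genes was listed, and neither were tax-2 and tax-4, which encode the cyclic nucleotide-gated channel of sensory neurons.

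Genes for alpha1, beta and alpha2-delta subunits of voltage-gated calcium channels were all listed. The beta subunit gene ccb-1 (WBGene00000368, chromosome I, 3641651 to 3647082) was by far the most abundant of the 5 members, at 324, 270.1 and 191 TPM in VA replicates 1, 2 and 3 against 20.8, 15.5 and 15.2 TPM in whole-worm replicates 2, 3 and 4. Its log2 difference was 3.84 ± 0.33 (SE, adjusted p = 2.0e-06 by limma). The other beta subunit gene, ccb-2, read 20.3, 7.29 and 17.8 TPM against 1.497 to 2.09 TPM. Among alpha1 subunits, the L-type gene egl-19 read 112, 70.9 and 23.2 TPM against 11.5 to 21.7 TPM. Its VA replicate 3 lay just above the highest whole-worm library. The T-type gene cca-1 read 60.9, 48.5 and 26.8 TPM against 5.48 to 9.07 TPM. The alpha2-delta subunit gene unc-36 read 81.3, 65.7 and 25.03 TPM against 13.5 to 17.5 TPM. By ratio of means egl-19, cca-1 and unc-36 stood at 4.15, 5.90 and 3.63, against 15.3 for ccb-1.

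Partners outside the rule had higher levels than egl-19 and unc-36. The alpha1 gene unc-2, whose channel acts at presynaptic release sites, had a mean of 146 ± 73.7 TPM in VA (SD, n = 3) and of 9.26 ± 3.36 TPM in whole worms (n = 3). The alpha2-delta gene tag-180 averaged 277 ± 168 against 15.6 ± 2.35 TPM, a ratio of 17.8 that was 11.8 without VA replicate 1. The gene calf-1, required to bring UNC-2 to synapses, averaged 217 ± 63.6 against 13.3 ± 2.24 TPM. The intracellular calcium release channel genes unc-68 and itr-1 were not listed.

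All pore and accessory genes of the NALCN-type leak channel were listed too. The accessory gene unc-80 (chromosome V, 20879601 to 20898948) read 189, 187 and 63.5 TPM in VA replicates 1, 2 and 3 against 18.4, 18.8 and 11.2 TPM in whole-worm replicates 2, 3 and 4. Its partner unc-79 (chromosome III, 4066633 to 4082849) read 152, 116 and 58.5 TPM against 10.1, 8.09 and 5.06 TPM. Log2 differences were 2.98 ± 0.44 and 3.59 ± 0.41 (SE, adjusted p = 9.9e-05 and 1.4e-05 by limma). The pore gene nca-2 was lower, at 24.9, 16.98 and 13.2 TPM against 1.61 to 2.71 TPM. The other pore gene, nca-1, was missed by the symbol rule because the table gives it under its other name, unc-77, and it read 185, 140.3 and 53.6 TPM against 4.83 to 10.3 TPM. The gene nlf-1, whose product helps to deliver these channels to the axon, averaged 296 ± 88.9 TPM (SD, n = 3) against 10.4 ± 3.48 TPM (n = 3). In every VA library unc-77 and unc-80 were several times nca-2, and nlf-1 was above all of them. Of the 18 partner genes counted besides the twk genes, 6 were listed, namely unc-2, tag-180, calf-1, nlf-1, bkip-1 and ctn-1, and all 6 had separate groups and passed limma's test, as did 91.9% and 95.1% of the table, so nothing is read from that count. The two-pore partner genes sup-10 and sup-18 were not listed.

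Ratios of related genes within a library do not depend on the library's total, and several differed between the sorted and the whole-worm libraries. The pairs were chosen after the values had been seen and come from genes already listed, so they are given without a test. tag-180 over unc-36 was 5.72, 3.44 and 5.61 in the VA libraries (replicates 1 to 3) and 0.959, 1.04 and 0.954 in the whole-worm libraries (replicates 2 to 4). In VA neurons tag-180 was thus the more abundant alpha2-delta transcript in each library, while whole worms held nearly equal levels of both. unc-2 over egl-19 was 1.96, 2.09 and 3.09 in VA and 0.579, 0.566 and 0.510 in whole worms, so the order of these alpha1 genes was opposite. kcnl-1 over kcnl-2 was 3.24, 4.41 and 3.15 against 1.68, 1.32 and 1.48. slo-1 over slo-2 was 0.798, 0.658 and 2.11 against 0.313, 0.230 and 0.293. The VA values of this last pair spread widely, with slo-1 above slo-2 in replicate 3 only. By contrast, unc-80 over nca-2 was 7.59, 11.03 and 4.81 in VA and 7.02, 6.94 and 6.93 in whole worms, and irk-1 over irk-3 was 1.46, 1.32 and 1.59 against 1.63, 0.910 and 0.973. For these pairs the groups overlapped.

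**Figure D3:**
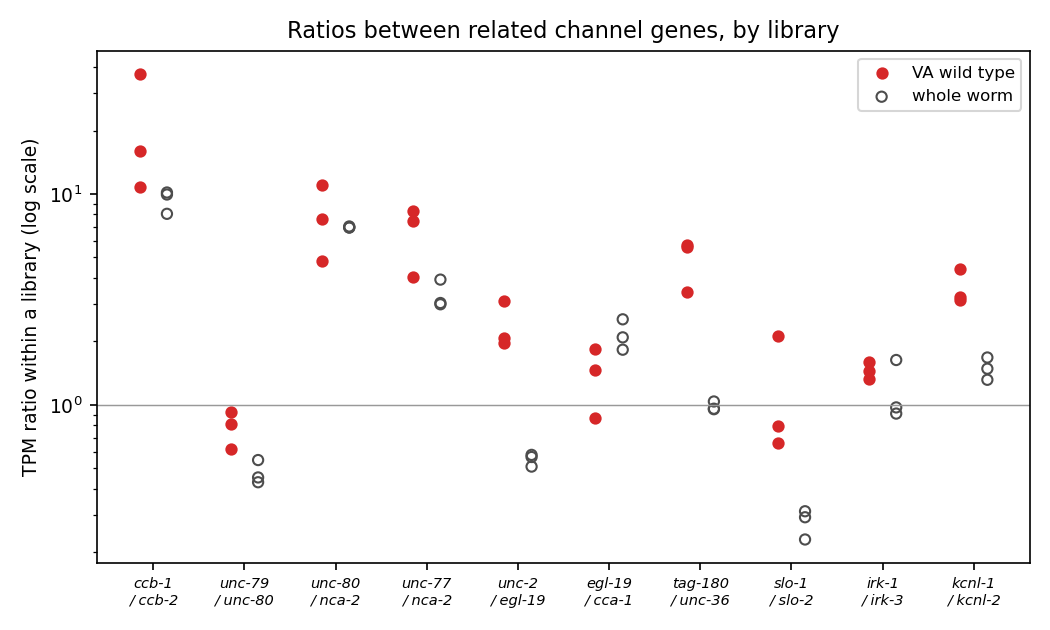
Ratio of TPM between related genes within each library on a log axis, for 10 pairs; filled points are the 3 wild type VA libraries and open points the 3 whole-worm libraries. The ratio tag-180 over unc-36 lies between 3.44 and 5.72 in VA libraries and near 1 in whole worms, while unc-80 over nca-2 overlaps between the groups.

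The VA libraries were unequal in a way that touched most channel genes. VA replicate 1 was the highest VA library for 32 of 35 genes, against 62.9% of the genes in the table. Replicate 3 was the lowest for 25, against 53% of the table, and replicate 2 for the other 10, against 41.6%. Heat shock genes held 5.22%, 32.6% and 1.9% of TPM in VA replicates 1, 2 and 3. Since TPM sum to a fixed total, the other genes share what is left, and rescaling without them raised the median log2 difference of the table by 0.199. The median of the channel genes was then 3.20 and 34 of 35 stayed separated.

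VA replicates 2 and 3 differed by gene length. Over 2109 genes of the table whose VA mean reached 5 TPM, Spearman's rho with annotated exon length was -0.274 for the log2 difference of replicate 3 minus replicate 2, -0.218 for replicate 3 minus replicate 1, and 0.189 for replicate 2 minus replicate 1 (descriptions across genes of shared libraries). Longer genes were thus relatively low in replicate 3 and relatively high in replicate 2. With the genes in 5 bins of nearly equal size by exon length, the median of replicate 3 minus replicate 2 was 0.19 in the bin of shortest and -0.51 in the bin of longest genes. Channel genes are long, with a median of 2688 exon bases against 1731 over the table, and 15 of the 35 fell in the bin of longest genes. Replicate 3 was the lowest VA library for 11 of these 15 and for 14 of the other 20, against 72.3% and 49.02% of the table's genes in the same bins. The median log2 difference of replicate 3 minus replicate 2 was -0.92 over the 15 and -0.29 over the 20. Among the 15, the difference was positive for slo-1, kcnl-1, kcnl-2 and egl-2, at 0.62, 0.20, 0.67 and 0.99. These differences were not rescaled for heat shock genes, which held 32.6% of TPM in replicate 2 and 1.9% in replicate 3. That share lowers the other genes in replicate 2 and shifts every difference upward, so the signs hold for the deposited TPM only. The largest drop of all was that of twk-43, at -2.15 with 2050 exon bases, and the largest rises were those of shk-1 and ccb-2, at 1.6 and 1.18. The part of length in the levels of long channel genes was not tested.

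**Figure D4:**
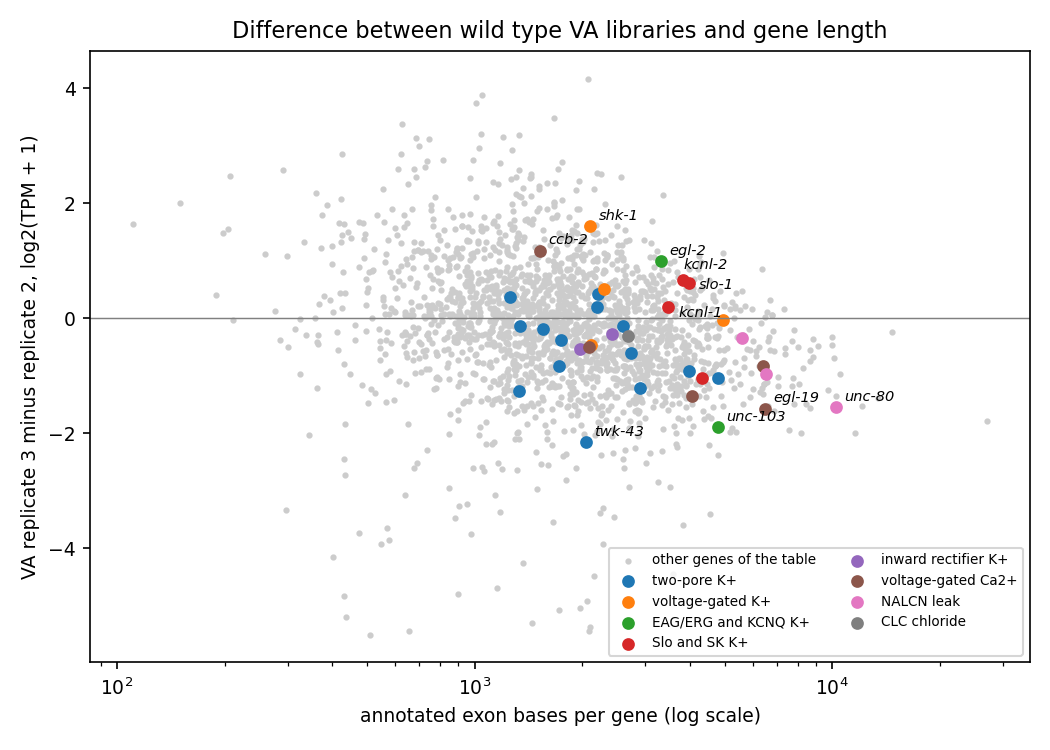
Difference between wild type VA replicates 3 and 2 on the log2(TPM + 1) scale against annotated exon bases per gene on a log axis, for genes of the table whose VA mean reached 5 TPM (grey) and the 35 channel genes (coloured by family). Among long members unc-80, egl-19 and unc-103 lie well below 0. The long slo-1, kcnl-1, kcnl-2 and egl-2 lie above it, as do the shorter shk-1 and ccb-2. TPM were not rescaled for heat shock genes, whose larger share in replicate 2 shifts all points upward.

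By position the members were spread over all 6 chromosomes, with 9 of the 35 on V and 9 on X. The share on X was 25.7%, against 20.97% of the table's genes and 13.7% of annotated protein-coding genes, and that on V was 25.7%, against 16.1% and 24.99%. The closest members were twk-35 and unc-80, 13805 bases apart on the same strand of V, and unc-79 and unc-103, 32535 bases apart on the same strand of III. Mean levels in VA neurons were not alike within these pairs, with unc-80 at 147 ± 71.9 and twk-35 at 60.1 ± 21.4 TPM, and unc-79 at 109 ± 47.3 and unc-103 at 8.51 ± 6.52 TPM (SD, n = 3).

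The other comparison sets VA neurons of unc-4 mutants against wild type ones. UNC-4 is a homeodomain repressor that sets the identity of these cells. Of the channel genes, ccb-2 and C32C4.1 were listed there, and the selection rule took them for that reason. Of annotated protein-coding genes, 1.07% were listed. The other 34 members were not listed as higher in the mutant, and neither were the 18 partner genes or twk-7, twk-30, twk-39 and twk-40. Genes that fell in the mutant are not analysed here.

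The beta subunit gene ccb-2 (WBGene00021125, chromosome I, 2845859 to 2849903) read 332, 15.7 and 387 TPM in the mutant libraries (replicates 1 to 3), against 20.3, 7.29 and 17.8 TPM in wild type VA (replicates 1 to 3). Replicates 1 and 3 of the mutant were far above wild type, whereas replicate 2 lay between the wild type values, so the groups overlapped. The authors' deposited table gives a fold of 14.0. The ratio of means was 16.2, and 23.8 without unc-4 replicate 2. In unc-4 replicates 1 and 3 ccb-2 thus exceeded the wild type mean of ccb-1, which averaged 262 ± 66.7 TPM (SD, n = 3) in wild type VA neurons.

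The potassium channel gene C32C4.1 (kvs-2, WBGene00007862, chromosome V, 10636022 to 10645135) read 53.0, 39.5 and 22.8 TPM in the mutant libraries, against 9.24, 1.54 and 5.76 TPM in wild type. Every mutant library was above every wild type library, as for 70.1% of the 214 genes of that table. The authors' deposited table gives a fold of 5.89. The ratio of means was 6.98, and 10.5 without wild type replicate 1. Its exons share 229 bases with those of C32C4.3 on the opposite strand, so part of the value may belong to that gene.

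On log2(TPM + 1), limma's test over the 214 genes gave differences of 3.12 ± 1.20 (SE, adjusted p = 0.036) for ccb-2 and 2.74 ± 0.91 (adjusted p = 0.027) for C32C4.1, where 80.8% of the table passed. Both calls were lost with any library other than unc-4 replicate 2 left out, with adjusted p-values from 0.066 to 0.15 by limma and log2 differences of 2.17 to 3.37. The table as a whole lost its calls in the same fits, with 2, 1 and 14 genes of 214 left without wild type replicates 1, 2 and 3, 42 of 214 without unc-4 replicate 1, and 0 of 210 without unc-4 replicate 3 (101 at an unadjusted p under 0.05, limma). Without unc-4 replicate 2, 211 of 213 passed. That replicate was the lowest mutant library for 83.2% of the genes in the table; it was the lowest for ccb-2 but not for C32C4.1. Of the 26 markers of other cell types 1 was listed in the mutant, the GABA neuron gene unc-30 (80.7, 51.6 and 134 TPM against 11.01, 6.04 and 13.2 TPM), and the defining GABA genes unc-25 and unc-47 were not. The part of other sorted cells in these differences was not tested. Nor was that of heat shock transcripts, which held 32.6% of TPM in wild type replicate 2, the lowest wild type library for ccb-2 and C32C4.1. Their share in the mutant libraries is not known.

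**Figure D5:**
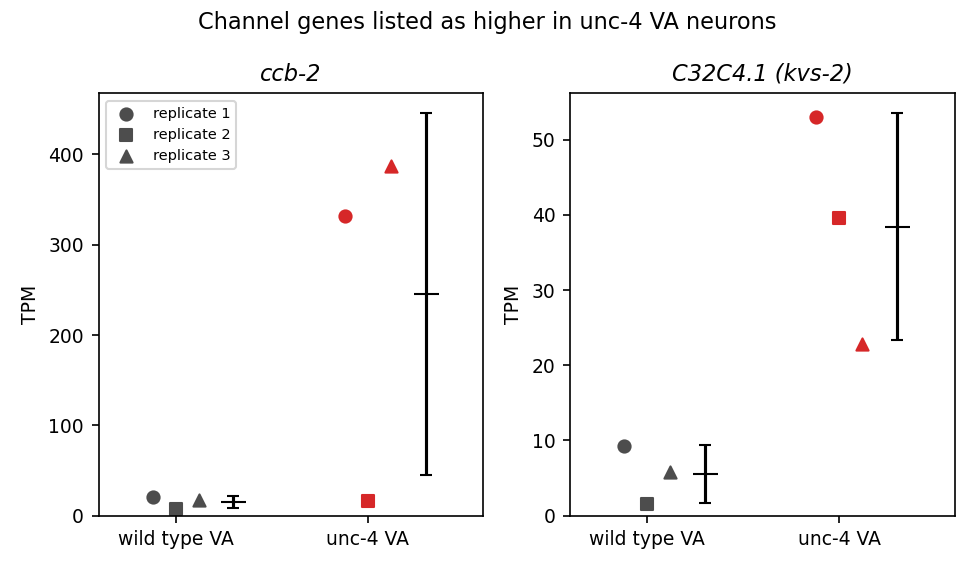
TPM of ccb-2 and C32C4.1 (kvs-2) in the 3 wild type and the 3 unc-4 VA libraries; symbols mark the replicates and bars the mean with its SD. Replicate 2 of the mutant lies at 15.7 TPM for ccb-2, among the wild type values, and at 39.5 TPM for C32C4.1, above all of them.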

How the data were processed

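RNA was copied and amplified as cDNA with a low-input Smart-Seq kit before Illumina sequencing, per the labels' protocols. The authors deposited 2 tables with a TPM value per library, 1 of wild type VA neurons against whole worms (2349 genes) and 1 of unc-4 against wild type VA neurons (214 genes, plus 2 rows that name no gene and were left out). The fold, read as a linear ratio, and the FDR p-value beside it are the authors' own, per the file headers, and only genes higher at an FDR under 0.05 are listed. Per the submitters' processing notes the genome was WBcel235; the aligner, counting and strand settings are not given in the sources used here. Depth is unknown. The wild type TPM values of the 13 genes in both tables were identical.

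Means, SDs (n = 3) and ratios of mean TPM were computed from the deposited values. Each table was fitted on log2(TPM + 1) by limma 3.58.1 (R 4.3.3, trend on), keeping genes whose mean reached 1 TPM in a group, and p-values were adjusted over the table by Benjamini-Hochberg; this scale understates changes of low genes. The code was tested on simulated data. Since the authors selected genes on these libraries, the p-values are no independent evidence. Coordinates, exon lengths (all isoforms joined) and families come from the Ensembl release 115 annotation, which matched 2337 and 214 genes. Every member was named; members, lists and pairs were chosen with earlier results of these data known. Alternatives were another pseudocount, no filter, no trend, rescaling without heat shock genes, a replicate block and leaving out each library.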

Additional observations from a re-analysis of the deposited data

How the results depend on the processing

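Against whole worms, the count of channel genes past limma's threshold was 35 as reported and with a pseudocount of 0.1, without the filter, without the trend and after rescaling without heat shock genes, 34 to 35 with 1 library left out, and 31 with the replicate block. Only replicate numbers 2 and 3 occur in both of these groups, so the block fit against whole worms takes its differences from those libraries. The remaining library of each group adds nothing to them. An effect of the block cannot be told apart from the loss of these libraries. The separated count stayed between 34 and 35 with 1 library left out. The median log2 difference was 3.62 with a pseudocount of 0.1, a shift set by the scale itself, 2.72 to 3.38 with 1 library left out, 3.20 after rescaling and 2.50 with the replicate block. In the unc-4 table the count was 2 under the settings that kept all libraries and 0 to 2 with 1 left out. In those fits the table itself kept 0 to 42 calls when the members lost theirs and 211 of 213 without unc-4 replicate 2. Rescaling was not run there because no heat shock gene is listed, which leaves their share in the mutant libraries unknown. Over 405 pairs of a gene and a setting none reversed and 19 lost the call, in 6 gene results: unc-103, clh-5, egl-2 and shl-1 against whole worms, and ccb-2 and C32C4.1 in the mutant. With the replicate block unc-103, clh-5, egl-2 and shl-1 lost it (adjusted p = 0.25, 0.060, 0.093 and 0.11 by limma). Same-numbered libraries share only a number: their deviations correlated at 0.0682 and -0.0137 for numbers 2 and 3 of VA and whole worms and at 0.0188, 0.178 and 0.0562 for numbers 1 to 3 of unc-4 and wild type, and not every library correlated best with its own number. Over all genes the block gave 1597 calls against whole worms, where 2214 were made without it, and 185 in the unc-4 table, where 173 were made without it. TPM keeps no depth, so the precision of low genes such as egl-2, twk-44 and twk-2 is not known beyond the spread of 3 libraries.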
